A study of Homo sapiens with 43 samples.

Results

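The polymerase that transcribes protein-coding genes was mapped in its serine 5 phosphorylated form (Ser5P) in SUDHL5 cells after 4 h with CDK-TCIP1 or with solvent. SUDHL5 is an established line of diffuse large B-cell lymphoma. Chromatin immunoprecipitation with sequencing used antibody ab5131. The libraries were chosen by their labels, which give 2 of CDK-TCIP1 at 30 nM for 4 h and 2 of DMSO for 4 h. They are 4 of the 43 libraries of the series and 4 of the 33 that have a peak list. All 4 kept 0.1% DMSO in the medium, and the labels name no genetic change in the cells. Nothing in the labels says that replicates are separate cultures, so the spread between them may be technical, and 1 line is 1 genetic background. With 2 libraries against 2, the groups cannot give an exact two-sided permutation p below 0.333, so no difference between the groups passed a test at 0.05.

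CDK-TCIP1 is a bifunctional molecule that joins a ligand of transcriptional kinases, CDK9 among them, to a ligand of BCL6. BCL6 is a repressor that germinal-centre B cells depend on, and it holds down genes of cell-cycle arrest, cell death and differentiation. The large subunit of RNA polymerase II ends in a tail of repeats. CDK7 phosphorylates serine 5 of the repeats as the polymerase starts, so Ser5P is known for its peak just after gene starts, where capping enzymes bind it. CDK9 then releases the paused polymerase, and serine 2 phosphorylation (Ser2P) grows along the gene body and is highest near the 3′ end. The comparison addresses where initiated polymerase sits once the molecule has brought the kinase to BCL6.

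The CDK-TCIP1 lists held 10816 and 14237 peaks in replicates 1 and 2, and the DMSO lists 17784 and 11782. All values below are given in that order of replicates. The deposited lists carry no read totals, so sequencing depth is unknown. DMSO replicate 1 stood apart: 6174 of the 11648 regions present in a single list were its own. Of 6 B-cell marker genes, 5 had a gene-end peak in all 4 lists, and 5 silent tissue genes and 5 myeloid genes had none. Of 5 T-cell genes, CD3E and LCK had one in all 4 lists.

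Examples of start regions that differed between the groups are printed first, as RefSeq windows of GRCh38.p14 from 250 bases before to 50 after the start. They were taken for genes whose Ser5P peak was called in both lists of one group only. NOSIP (chr19:49580507-49580806, minus strand), DAPP1 (chr4:99816577-99816876, plus strand) and FOXO3 (chr6:108559575-108559874, plus strand) had a peak after CDK-TCIP1 and none after DMSO. A further FOXO3 window had a peak in CDK-TCIP1 replicate 2 alone, and its remaining windows had none in any list. RPE (chr2:210002388-210002687, plus strand) had a peak after DMSO and none after CDK-TCIP1. Capitals mark matches on either strand to CCGGAAG (an ETS core) or CCAAT, which do not overlap each other.
NOSIP: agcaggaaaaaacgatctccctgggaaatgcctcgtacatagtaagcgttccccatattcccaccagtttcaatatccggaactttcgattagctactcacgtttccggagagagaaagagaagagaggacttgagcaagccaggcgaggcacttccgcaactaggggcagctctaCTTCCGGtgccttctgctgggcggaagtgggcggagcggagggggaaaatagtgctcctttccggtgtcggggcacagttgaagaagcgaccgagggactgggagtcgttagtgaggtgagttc
DAPP1: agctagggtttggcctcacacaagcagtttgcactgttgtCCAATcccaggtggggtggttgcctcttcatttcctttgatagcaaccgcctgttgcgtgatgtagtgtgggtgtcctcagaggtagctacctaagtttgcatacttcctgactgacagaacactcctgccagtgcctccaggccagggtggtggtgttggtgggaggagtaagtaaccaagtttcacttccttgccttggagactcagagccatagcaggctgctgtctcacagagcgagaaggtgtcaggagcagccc
FOXO3: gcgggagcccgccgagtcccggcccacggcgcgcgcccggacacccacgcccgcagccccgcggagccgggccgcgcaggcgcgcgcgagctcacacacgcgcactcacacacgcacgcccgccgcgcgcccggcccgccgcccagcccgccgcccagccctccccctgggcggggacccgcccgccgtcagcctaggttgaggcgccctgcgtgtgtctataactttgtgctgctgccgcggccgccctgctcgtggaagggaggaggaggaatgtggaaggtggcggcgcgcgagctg
RPE: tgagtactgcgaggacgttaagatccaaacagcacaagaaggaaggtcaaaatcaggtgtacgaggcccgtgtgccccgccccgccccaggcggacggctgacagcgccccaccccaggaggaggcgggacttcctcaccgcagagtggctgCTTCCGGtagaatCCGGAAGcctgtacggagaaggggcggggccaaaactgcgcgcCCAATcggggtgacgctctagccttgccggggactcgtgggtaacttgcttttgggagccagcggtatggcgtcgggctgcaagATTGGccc
The FOXO3 window held 15.7 CpG per 100 bases and none of the searched motifs, and the DAPP1 window held 1. Peak summits lay 46 and 61 bases after the NOSIP start and 40 and 37 bases after the DAPP1 start in the CDK-TCIP1 lists. At FOXO3 they lay at -455 and 187 bases, both outside the printed window. At RPE they lay at -215 and -231 bases, before the start, in the DMSO lists. Over 378 windows with a peak in both CDK-TCIP1 lists and no DMSO list, the median was 9.33 CpG per 100 bases. It was 4 over the 67 windows of the opposite kind and 9.33 over the 4452 windows held by all 4 lists. TATAAA stood in 1.85% of the first kind, 10.4% of the second, 5.19% of windows held by all 4 lists and 9.47% of all 22199 promoter windows. The ETS core stood in 19.8% of the first kind, 14.9% of the second, 23.7% of windows held by all 4 lists and 12.8% of all windows. The BCL6 core, searched as TTCCTAGAA and TTCCTGGAA, stood in 0.794% of the first kind, in none of the second, in 0.449% of windows held by all 4 lists and in 0.946% of all windows. A match is a run of letters and does not show binding.

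A larger share of the Ser5P peaks lay at gene ends after CDK-TCIP1. Peaks within 1 kb of either end of a protein-coding gene made up 52.2% and 52.9% of the CDK-TCIP1 lists, against 40.4% and 48.1% of the DMSO lists. The groups did not overlap, and the difference was 8.32 percentage points with an exact permutation p of 0.333, the smallest this design allows. Peaks inside genes, farther than 1 kb from their ends, made up 32.3% and 32.7% after CDK-TCIP1 and 44.7% and 37.3% after DMSO. This difference of -8.50 points had the same exact permutation p of 0.333. Peaks between genes kept a similar share, at 15.5% and 14.3% after CDK-TCIP1 and 14.9% and 14.6% after DMSO. Without DMSO replicate 1 the gene-end difference was 4.44 points. Only the shares separated the groups, and the numbers of peaks overlapped. Gene-end peaks numbered 5644 and 7538 after CDK-TCIP1 and 7180 and 5670 after DMSO. Peaks inside genes numbered 3495 and 4659 after CDK-TCIP1 and 7957 and 4395 after DMSO.

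**Figure D1:**
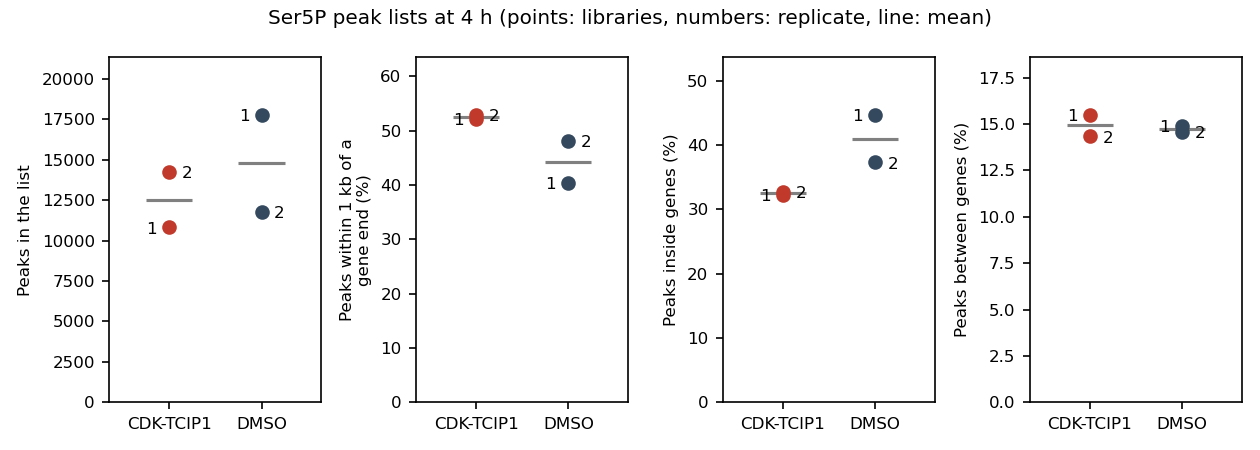
Each panel plots one value of the 4 Ser5P lists at 4 h, with CDK-TCIP1 left of DMSO, a point per library numbered by replicate, and a line at the group mean. List lengths overlap, while both CDK-TCIP1 lists lie above both DMSO lists in the share of peaks at gene ends and below them in the share inside genes.

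The number of peaks did not separate the groups. The mean was 12527 ± 2419 peaks after CDK-TCIP1 and 14783 ± 4244 after DMSO (SD, n = 2 each; exact permutation p = 0.667 on the log2 scale). Covered length was 12.2 and 15.5 Mb after CDK-TCIP1 and 19.5 and 12.3 Mb after DMSO, which also overlapped. Median peak width was 719 and 745 bp after CDK-TCIP1 and 664 and 673 bp after DMSO. That difference turned round when only the strongest peaks of each list were kept. Peaks over 5 kb numbered 199 and 207 after CDK-TCIP1, against 368 and 175 after DMSO. Around 2836 gene starts held by all lists, the position of the start itself was covered in 85.9% and 92.4% of cases after CDK-TCIP1 and 86.7% and 81.2% after DMSO, which overlapped.

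Merging all peaks that shared at least 1 bp gave 23629 regions. Of these, 492 were gained, meaning a peak in both CDK-TCIP1 lists and in no DMSO list, which is 2.08% of all regions. The reverse pattern, called lost, was met by 899 regions or 3.80%. All 4 lists held 5975 regions, 25.3%, and the remaining 16263 were mixed. Gained regions lay at gene ends in 55.7% of cases, with an exact binomial 95% interval of 51.2 to 60.1% that covers counting error only. Lost regions lay there in 21.1% of cases (18.5 to 24%) and inside genes in 59.4%, a share like the 55.4% of mixed regions. This contrast depended on 1 library: without CDK-TCIP1 replicate 2, 27.8% of gained and 36.4% of lost regions lay at gene ends. The shares of peaks at gene ends, which do not use these classes, still differed by 7.93 points without that library.

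**Figure D2:**
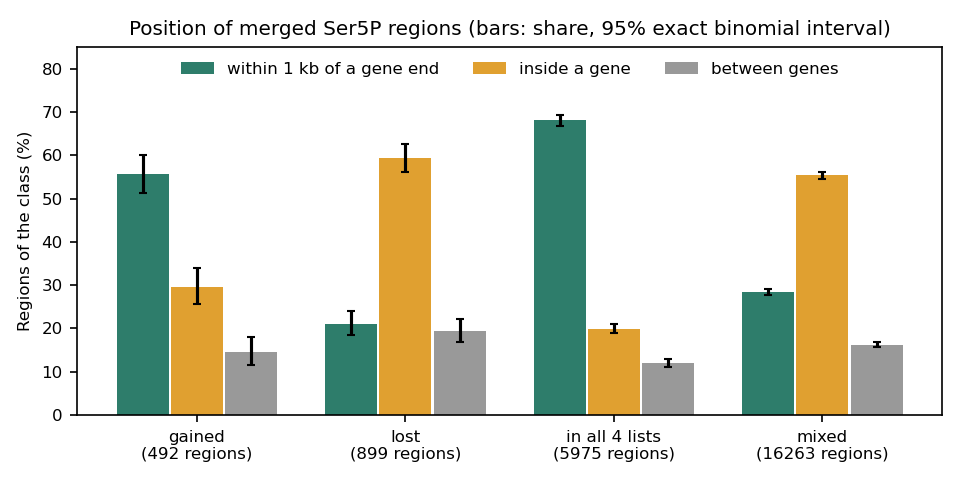
Bars give the share of merged Ser5P regions (percent of the class) within 1 kb of a gene end, inside a gene and between genes, for the 4 classes of region, with 95% exact binomial intervals. Gained regions and those held by all 4 lists lie mostly at gene ends, and lost and mixed regions mostly inside genes.

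Of 20037 protein-coding genes, 8826 had a Ser5P peak within 1 kb of an end in at least 1 list. Gained genes numbered 280, or 3.17% of these, lost genes 84, or 0.952%, 4789 genes (54.3%) were held by all 4 lists, and 3673 (41.6%) were mixed. Where RefSeq gives a start, 207 of 230 gained genes were also gained at a start, while 32 of 62 lost genes were lost there. At the 10816 strongest peaks of every list, gained genes numbered 455 and lost genes 79.

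The leading gained genes, ranked by q within the 2 lists, had gene-end peaks that were missing from both DMSO lists. NOSIP, which encodes an E3 ubiquitin ligase that binds nitric oxide synthase, had peaks with the authors' fold enrichment of 8.15 and 9.55 after CDK-TCIP1. DAPP1, an adaptor of B-cell receptor signalling, had 6.68 and 7.10. The decoy receptor TNFRSF10D, which binds the death ligand TRAIL without a full death domain, had 11.3 and 12.3. DBR1, the enzyme that opens intron lariats, had 9.85 and 8.22, and VSIR, an immune checkpoint receptor, had 7.06 and 7.40. APLP2, a relative of the amyloid precursor, had 10.3 and 11.1, and the RNA-processing nuclease ELAC2 had 6.80 and 8.74. RAD51AP1, a homologous recombination factor, shares its peak with the divergent gene FERRY3. Folds are relative to each list's own background and are not scaled between lists. At their gene ends, ELAC2, RAD51AP1 and FERRY3 had a Ser2P peak in both CDK-TCIP1 lists and both DMSO lists, and NOSIP in both CDK-TCIP1 lists and 1 DMSO list. DAPP1 had a Ser2P peak in 1 list of each group, APLP2 in 1 CDK-TCIP1 list alone, and DBR1 and VSIR each in 1 DMSO list alone. TNFRSF10D had no Ser2P peak in either group.

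Members of the curated gene lists that were gained number 6 of the 389 with a peak, a smaller share than the 3.17% of all genes. The FOXO list holds 3 of them. FOXO3, a transcription factor of arrest and cell death that BCL6 represses, had peaks of 0.943 and 0.900 kb at its start, with folds of 4.95 and 4.38. SESN3, a stress-induced FOXO target, had peaks of 0.575 and 0.554 kb. GABARAPL1, which builds autophagosomes, had peaks of 0.735 and 0.697 kb. The stress-response gene IER3, the Mediator subunit MED21 and the chaperone DNAJB1 were the others. DNAJB1 was held by all 4 lists at a further RefSeq start inside the gene. Its gained peak lay within 1 kb of its 3′ end, and neither annotated end had a peak after DMSO. The median fold of all peaks was 4.95 and 4.98 in the CDK-TCIP1 lists. GABARAPL1 (6.93 and 5.77), IER3 (6.26 and 6.38) and MED21 (5.14 and 5.37) lay above it, and SESN3 (4.41 and 3.09) and DNAJB1 (3.57 and 2.35) below it. Ranked by q, the middle one of all 280 gained genes stood 59.7% of the way down its lists.

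Of the 10 leading lost genes, 3 were also lost at a RefSeq start, namely JCHAIN, LHFPL2 and RPE. MYH14, a non-muscle myosin, had a peak of 4.24 and 1.73 kb reaching within 1 kb of its 3′ end in the DMSO lists and none there after CDK-TCIP1. That peak covered 0.112 kb of the gene in DMSO replicate 1 and none of it in replicate 2. The MYH14 window also touched a region held by all 4 lists. SH3GLB2, an endophilin, had 4.59 and 0.816 kb in the DMSO lists. ZNF768, a zinc finger gene, had a peak at a further RefSeq start inside the gene in all 4 lists. Its 3′ end had one of 1.26 and 0.734 kb in the DMSO lists alone. RPE, of the pentose phosphate pathway, had start peaks of 0.653 and 0.779 kb in the DMSO lists. JCHAIN, the joining chain of secreted antibody, had a peak within 1 kb of its start in both DMSO lists, with folds of 6.92 and 6.38. These folds belong to peaks that do not overlap each other. The 300-base window around the JCHAIN start held a peak in DMSO replicate 2 alone. DIABLO, a mitochondrial activator of caspases, was lost at a gene end and mixed at a further RefSeq start inside the gene. MIEF1 ranked first only because a peak over its neighbour ATF4 reached its window in the DMSO lists: ATF4 was held by all 4 lists. Of the 84 lost genes, 56 had a lost region in their window. A further 8 instead touched a region held by every list, and 20 had neither. Of the 280 gained genes, 258 had a gained region, 5 touched a region held by every list, and 17 had neither. The 8 lost ones include MIEF1, MYH14, SMIM35, CTNNBIP1 and TRIP6, all among the 10 leading lost genes.

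Away from gene ends, the best-ranked gained regions included one inside PTCH1, the Hedgehog receptor, at chr9:95462037-95463743 of hg38, with folds of 5.37 and 7.17 after CDK-TCIP1. Another lay inside MBNL3, a splicing regulator, at chrX:132480593-132481892, with folds of 4.65 and 5.58 after CDK-TCIP1. A lost region inside GRB2, an adaptor of receptor signalling, at chr17:75346750-75347282, had folds of 10.6 and 9.01 in the DMSO lists.

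At the widest gene-end peaks, the groups differed in places. RBM38, an RNA-binding protein gene, had peaks of 22.9 and 23.1 kb after CDK-TCIP1 and 23.9 and 23.1 kb after DMSO. CD74, the invariant chain of class II molecules, shares its peak with TCOF1, and that peak was 14 and 13.9 kb after CDK-TCIP1 and 20.1 and 18.2 kb after DMSO. TSPOAP1 had 15.9 and 15.5 kb after CDK-TCIP1 and 19.7 and 19 kb after DMSO. Of 20 further genes picked for their place in BCL6, CDK9 and cell-death biology, 14 had a gene-end peak in all 4 lists, among them BCL6, MYC, MCL1, BCL2L11 and TNFRSF10B. FOXO3 was gained, BBC3 was mixed, and 4 had no gene-end peak in any list: CDKN1A, PRDM1, IRF4 and BCL2.

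Ser2P, measured in other libraries, differed in the direction of Ser5P at gained and lost regions. A Ser2P peak lay in 54.7% and 54.7% of gained Ser5P regions in the CDK-TCIP1 lists, against 43.1% and 25.4% in the DMSO lists. In lost Ser5P regions it lay in 38.9% and 27.1% after CDK-TCIP1 and in 66.3% and 61.7% after DMSO. Neither pair overlapped, with differences of 20.4 and -31.0 points and an exact permutation p of 0.333 each (adjusted 0.444 over 12 tests). When every Ser2P list was limited to an equal number of its strongest peaks, the differences were 31.0 and -23.8 points. In regions held by all 4 Ser5P lists, Ser2P stood in 89.2% and 88.8% after CDK-TCIP1 and in 88.4% and 79.8% after DMSO. The Ser2P lists themselves held 16323 and 13657 peaks after CDK-TCIP1 and 28951 and 16593 after DMSO.

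Total polymerase did not separate the groups at these regions. Its short lists, of 138 to 3229 peaks, covered 1.63 ± 2.64% of gained regions after CDK-TCIP1 and 1.42 ± 1.66% after DMSO (SD, n = 3 each; exact permutation p = 0.9). CDK9 at 2 h was found more often in all 3 classes. With antibody ab239364, it stood in 32.8 ± 2.16% of gained regions after CDK-TCIP1 and 6.10 ± 6.32% after DMSO (SD, n = 2 each). In lost regions the means were 17.2 ± 6.14% after CDK-TCIP1 and 1.28 ± 1.49% after DMSO. In regions held by all 4 lists they were 66.9 ± 1.38% after CDK-TCIP1 and 22.5 ± 16.8% after DMSO. With CST2316S, gained regions held CDK9 in 23.6 ± 0.575% after CDK-TCIP1 and 0.508 ± 0.431% after DMSO. Lost regions held it in 26.3 ± 0.472% after CDK-TCIP1 and 4.17 ± 1.34% after DMSO. Each of these had an exact permutation p of 0.333, and the part of list length was not tested. The CDK9 lists held 9262 to 11148 peaks after CDK-TCIP1 and 915 to 3508 after DMSO with ab239364, and 9761 to 10005 after CDK-TCIP1 and 1264 to 1611 after DMSO with CST2316S.

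**Figure D3:**
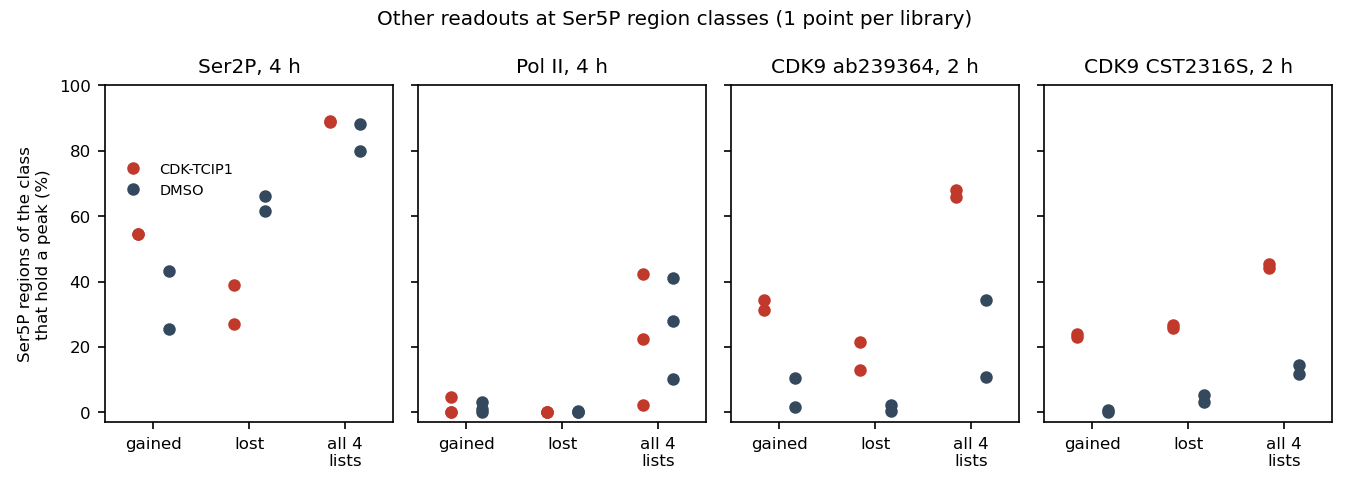
The vertical axis gives the share of gained, lost and all-list Ser5P regions (percent) that hold a peak of Ser2P, total polymerase or CDK9, with CDK-TCIP1 left of DMSO and a point per library. Ser2P points separate in opposite directions at gained and lost regions, and CDK9 points are higher after CDK-TCIP1 in all 3 classes.

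Some genes held several lost regions. The 534 lost regions inside genes fell in 403 genes, 18 of which held at least 4. BRWD1, a chromatin reader, held 8, ZCCHC7 held 7, and PLCG2, the phospholipase of B-cell receptor signalling, held 6. The length of BRWD1 covered by Ser5P peaks was 10.0 and 8.87 kb after CDK-TCIP1, against 31.3 and 21.8 kb after DMSO. PLCG2 had 40.4 and 40.1 kb after CDK-TCIP1 and 81.7 and 47.0 kb after DMSO. BLNK, the adaptor that links the B-cell receptor to PLCG2, had 1.56 and 0.854 kb after CDK-TCIP1 and 10.3 and 4.72 kb after DMSO. Ser2P peaks covered none of BLNK after CDK-TCIP1, against 15.5 and 7.04 kb after DMSO. IL4R, a cytokine receptor of germinal-centre B cells, had 2.42 and 3.65 kb of Ser5P after CDK-TCIP1 and 12.8 and 6.39 kb after DMSO. Ser5P cover was lower without overlap in 17 of the 18 genes, as their choice nearly fixes. Ser2P cover, which was not used to choose them, was lower in 17 as well, with P2RY8 the exception. Among all genes with Ser2P cover, 17.5% had less, a share that reached 45.4% from 3 to 10 kb and 54.6% at 10 kb or above. The hosts had less in 7 of 7 and 9 of 10 cases in these ranges, and the 1 host below 1 kb also had less. Gained regions inside genes were scattered, 146 of them over 137 genes. FLI1, an ETS factor, held 3.

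Covered length was then compared over whole genes, a measure added after the lists had been examined. Of 9545 genes with any Ser5P cover, 1231 (12.9%) had less in both CDK-TCIP1 lists than in either DMSO list, and 1429 (15%) had more. The direction followed how much of a gene was covered. Among 6994 genes with a mean below 1 kb, 7.84% had less and 15.7% had more. Among 101 genes with at least 10 kb, 45.5% had less and 0.990% had more. For Ser2P, 17.5% of covered genes had less and 14.2% more.

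The widest differences towards less cover were in broadly covered genes. ITPKB, an inositol trisphosphate kinase that tempers B-cell signalling, had 42.6 and 55.1 kb after CDK-TCIP1 and 85.6 and 74.0 kb after DMSO. ST6GAL1, a sialyltransferase that makes the CD22 ligand, had 24.3 and 20.1 kb after CDK-TCIP1 and 59.5 and 33.9 kb after DMSO. SREBF2, the sterol regulator, had 8.62 and 8.48 kb after CDK-TCIP1 and 33.4 and 19.7 kb after DMSO. DNMT1, the maintenance DNA methyltransferase, had 5.26 and 9.03 kb after CDK-TCIP1 and 28.5 and 18.8 kb after DMSO. Differences towards more cover were shorter. TNFAIP8, an NF-kB-induced regulator of cell death, had 8.92 and 11.2 kb after CDK-TCIP1 and 4.81 and 2.93 kb after DMSO. NUAK2, a stress kinase, had 4.54 and 7.05 kb after CDK-TCIP1 and 1.88 and 0.473 kb after DMSO. THEMIS2, a B-cell receptor signalling adaptor, had 2.28 and 4.43 kb after CDK-TCIP1 and no cover after DMSO.

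Genes that BCL6 is known to repress had more Ser5P cover after CDK-TCIP1 more often than the background. Of 27 in the list, 16 had any Ser5P cover, 9 had more after CDK-TCIP1 without overlap, and 1, BMF, had less. The 9 are 4 of 7 members below 1 kb, 4 of 7 from 1 to 3 kb and 1 of 2 from 3 to 10 kb. All covered genes in these ranges had more in 15.7%, 15% and 9.41% of cases. For Ser2P, 8 of 15 covered members had more and none less, against 14.2% and 17.5% of all genes with Ser2P cover. These Ser2P shares were not matched for covered length. Without CDK-TCIP1 replicate 1, 12 members had more, but so had 46.5% of all covered genes, and without DMSO replicate 1, 12 members and 36.9% of genes. No test is given for a list, since its members were chosen with results of these data known, and a member covered only after CDK-TCIP1 enters the count because it is high there.

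CXCR5, the chemokine receptor of B-cell follicles, had 3.43 and 4.71 kb after CDK-TCIP1 and 0.446 and 0.994 kb after DMSO. CDKN1A, the p21 inhibitor of cyclin-dependent kinases, had 1.05 and 3.11 kb after CDK-TCIP1 and 0.987 kb and none after DMSO. It had no peak within 1 kb of its annotated gene ends in any list, and a further RefSeq start inside the gene was mixed. CDK9 peaks stood at a CDKN1A gene end in both CDK-TCIP1 lists of each antibody and in no DMSO list. CDKN1B, the p27 inhibitor, had 2.26 and 1.98 kb after CDK-TCIP1 and 1.42 and 0.878 kb after DMSO. FOXO3 had 0.187 and 1.40 kb after CDK-TCIP1 and none after DMSO. The activation marker CD69 had 7.54 and 8.12 kb after CDK-TCIP1 and 6.97 and 4.57 kb after DMSO. The groups lay close together at ID2, ATR and CCR6, as their nearest values also did at CDKN1A and FOXO3. CCR6, another chemokine receptor, had 0.378 and 1.52 kb after CDK-TCIP1 and 0.363 and 0.343 kb after DMSO. Ser2P cover was higher without overlap in CXCR5, CDKN1A, CDKN1B, FOXO3 and CD69. PRDM1 and IRF4, which drive plasma-cell differentiation and are repressed by BCL6, and the anti-apoptotic BCL2 had no Ser5P cover in any of the 4 lists.

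**Figure D4:**
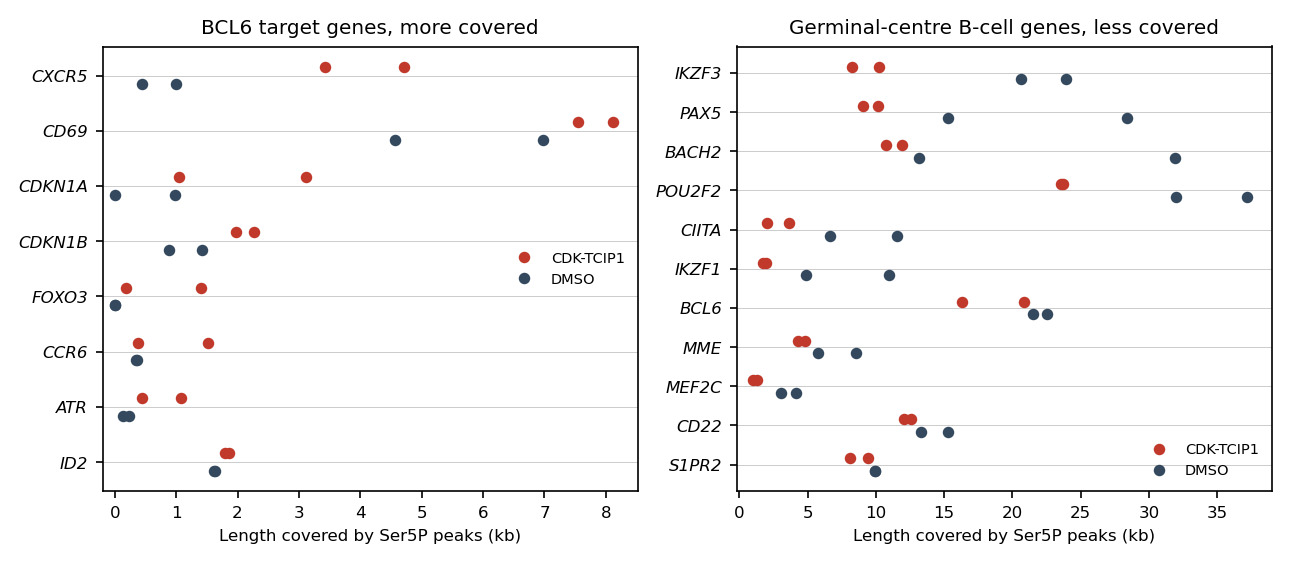
Points give the length of each gene covered by Ser5P peaks (kb) in each library at 4 h, with CDK-TCIP1 drawn above DMSO. The genes drawn are among the list members whose groups do not overlap, and the gaps are several kb in IKZF3, CIITA and CXCR5 and narrow in ID2 and S1PR2.

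Immediate-early genes, which respond to signals without new protein synthesis, were also more often higher than the background. Of 24 covered members, 9 had more Ser5P cover after CDK-TCIP1 and 1 less, and for Ser2P 10 had more and 1 less. Over all covered genes the shares were 15% more and 12.9% less for Ser5P, and 14.2% and 17.5% for Ser2P. By level, 3 of 4 members had more below 1 kb, 3 of 12 from 1 to 3 kb and 3 of 8 from 3 to 10 kb, against 15.7%, 15% and 9.41% of all covered genes. The orphan receptor NR4A1 had 3.94 and 6.59 kb after CDK-TCIP1 and 2.70 and 1.33 kb after DMSO. EGR3, a zinc finger factor, had 2.33 and 1.46 kb after CDK-TCIP1 and 0.531 kb and none after DMSO. The MAP kinase phosphatase DUSP6 had 2.63 and 1.5 kb after CDK-TCIP1 and 1.43 and 0.304 kb after DMSO.

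In the cell-cycle arrest list, 9 of 23 covered genes had more and 3 had less. By level, 4 of 8 had more below 1 kb, 3 of 10 from 1 to 3 kb and 2 of 5 from 3 to 10 kb, beside the background shares just given. The 9 include CDKN1A and CDKN1B, which are also BCL6 targets. PLK3, a stress-responsive polo kinase, had 2.29 and 3.1 kb after CDK-TCIP1 and 1.24 and 1.17 kb after DMSO. CDKN2C, the p18 inhibitor, had 3.87 and 4.26 kb after CDK-TCIP1 and 2.94 and 2.71 kb after DMSO. Pro-apoptotic genes stood near the background, with 4 of 23 higher and 2 lower. The BH3-only gene HRK had 4.82 and 6.03 kb after CDK-TCIP1 and 3.44 and 2.86 kb after DMSO, and its Ser2P cover was 3.38 and 2.61 kb after CDK-TCIP1 and none after DMSO. PMAIP1 and BBC3, which encode NOXA and PUMA, differed by less, with 2.72 and 2.74 kb after CDK-TCIP1 and 2.54 and 1.85 kb after DMSO at PMAIP1. BCL2L11, which encodes BIM, overlapped between the groups.

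Germinal-centre B-cell genes had less cover in 11 of 28 covered members and more in 2. That share is near the background of genes covered as broadly: 6 of 11 members had less at 10 kb or above, against 45.5% of all such genes, and 4 of 13 from 3 to 10 kb, against 32.8%. PAX5, the factor that holds B-cell identity, had 9.03 and 10.2 kb after CDK-TCIP1 and 28.4 and 15.3 kb after DMSO. IKZF3, the Aiolos factor, had 8.22 and 10.2 kb after CDK-TCIP1 and 23.9 and 20.6 kb after DMSO. CIITA, the activator of class II antigen presentation, had 2.00 and 3.64 kb after CDK-TCIP1 and 11.5 and 6.67 kb after DMSO. BACH2, which delays plasma-cell fate, had 11.9 and 10.8 kb after CDK-TCIP1 and 31.9 and 13.2 kb after DMSO. BCL6 itself had 20.8 and 16.3 kb after CDK-TCIP1 and 22.5 and 21.5 kb after DMSO. IRF8 overlapped between the groups. GNA13, a G protein that restrains germinal-centre B cells, differed in the other direction, with 5.45 and 5.50 kb after CDK-TCIP1 and 3.53 and 2.80 kb after DMSO.

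Ribosomal protein genes had less cover in 24 of 75 members and more in 2, RPLP0 and RPL3. From 3 to 10 kb, 11 of 29 had less, against 32.8% of all genes in that range, and from 1 to 3 kb 13 of 43, against 23.2%. Ser2P did not share that lean, with 13 of 74 lower and 10 higher, against 17.5% and 14.2% of all genes with Ser2P cover. MYC and growth genes had less in 7 of 19 and more in 1. Less cover was found in 2 of 8 members below 1 kb, 1 of 4 from 1 to 3 kb and 4 of 7 from 3 to 10 kb, against 7.84%, 23.2% and 32.8% of all covered genes. The nucleolar genes NCL and NPM1 were among the 7. NCL had 3.37 and 3.16 kb after CDK-TCIP1 and 6.01 and 4.25 kb after DMSO. MYC overlapped, with 2.66 and 3.15 kb after CDK-TCIP1 and 3.90 and 1.12 kb after DMSO.

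**Figure D5:**
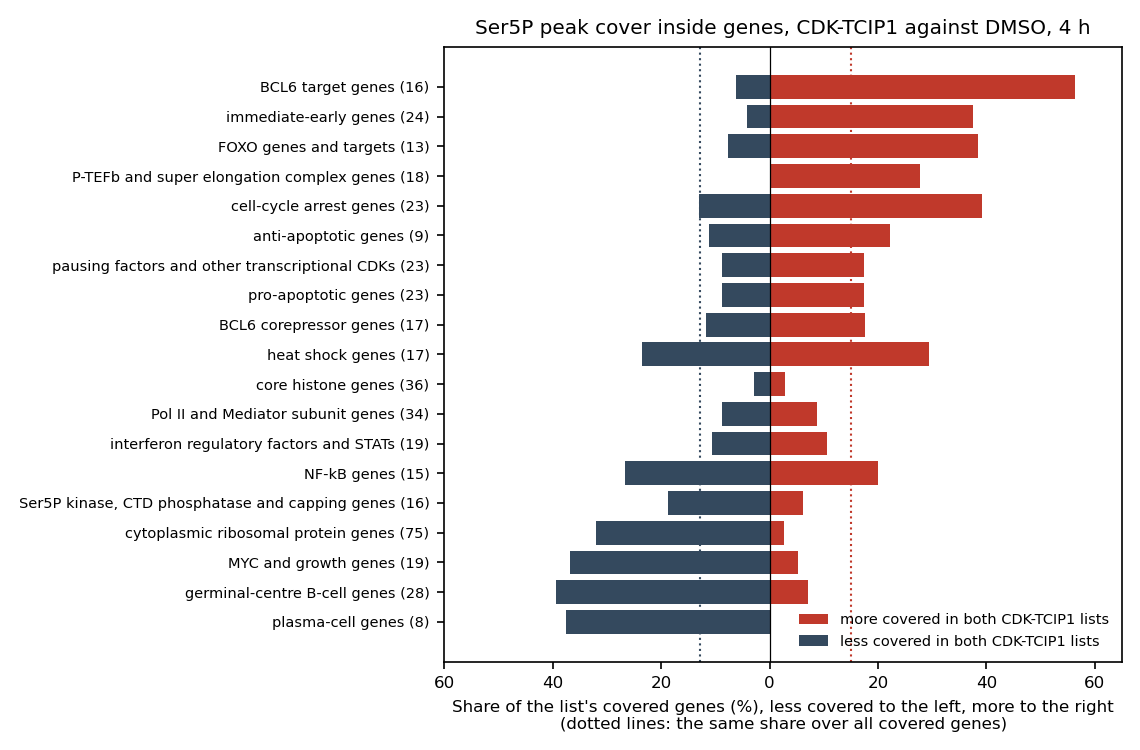
Bars give the share of each gene list's covered members (percent, number of covered members in brackets) with more Ser5P cover in both CDK-TCIP1 lists, to the right, or less, to the left, and dotted lines give these shares over all covered genes. Lists with at least 8 covered members are drawn. BCL6 targets reach farthest to the right, followed by cell-cycle arrest, FOXO and immediate-early genes. Germinal-centre, plasma-cell (3 of 8 members), MYC and ribosomal protein genes reach farthest to the left. The dotted lines are not matched for covered length. Less cover was found in 7.84% of all covered genes below 1 kb, 32.8% from 3 to 10 kb and 45.5% at 10 kb or above.

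Of 18 covered genes of P-TEFb and the super elongation complex, 5 had more Ser5P cover after CDK-TCIP1 and none less, against 15% and 12.9% of all covered genes. Their Ser2P cover was higher in 3 of 17 and lower in 2, against 14.2% and 17.5% of all genes with Ser2P cover. Pausing factors and other transcriptional kinases stood near the background, with 4 of 23 higher and 2 lower. HEXIM1, the inhibitor that holds CDK9 inactive, carried a gene-end peak of 5.91 and 5.73 kb after CDK-TCIP1, against 2.99 and 2.89 kb after DMSO. Each DMSO list had 2 peaks over the gene where each CDK-TCIP1 list had 1, and the covered length was 3.63 and 3.63 kb after CDK-TCIP1 and 3.245 and 2.28 kb after DMSO. The widest peak reached the 1 kb windows of both gene ends after CDK-TCIP1 and that of the start alone after DMSO. AFF1, a scaffold of the super elongation complex, had 2.30 and 2.60 kb of cover after CDK-TCIP1 and 1.03 and 0.530 kb after DMSO. CDK9 had 1.00 and 1.6 kb after CDK-TCIP1 and 2.44 and 1.53 kb after DMSO, which overlapped. Of 16 covered genes in a list of Ser5P kinase, tail phosphatase and capping genes, 3 had less cover and 1 more, beside the background shares above. One of the 3, SSU72, a serine 5 phosphatase, had 0.769 and 0.996 kb after CDK-TCIP1 and 2.18 and 2.42 kb after DMSO. Pol II and Mediator subunits had 3 of 34 genes in each direction.

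Ser5P was also mapped after 2 h of CDK-TCIP1, in lists of 13290 and 15099 peaks that have only the same DMSO lists for reference, so the times are set side by side without a comparison. CXCR5 had 5.72 and 3.85 kb of cover at 2 h and 3.43 and 4.71 kb at 4 h. CDKN1B had 3.40 and 2.89 kb at 2 h and 2.26 and 1.98 kb at 4 h. PAX5 had 11.6 and 10.6 kb at 2 h and 9.03 and 10.2 kb at 4 h. FOXO3 and NOSIP had a gene-end peak in both lists at each time. RPE and JCHAIN had one in both lists at 2 h and in neither at 4 h. DIABLO and MYH14 had none at either time.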

How the data were processed

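Per the labels' protocol, chromatin from SUDHL5 cells was precipitated with ab5131, and per the submitters' processing notes Bowtie2, Picard, MACS2 and bedtools were among the tools and hg38 and dm6 the builds, with no version given in the sources used here. The deposited lists give, for each peak, the authors' fold (a ratio to local background), -log10 p and -log10 q. Peaks on unplaced contigs, at most 3 a list, were left out.

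Peaks were merged at 1 bp, and gene ends were those of protein-coding genes in a RefSeq table of GRCh38.p14, with starts and strand for 15843 of them. Covered length is the summed overlap of peaks with a gene. Fold and q served only to rank, filter or describe peaks within a list. Group means were tested by exact two-sided permutation (numpy 2.4.6), and binomial intervals came from scipy 1.17.1. Region classes and covered lengths recovered all planted answers on simulated lists of well-separated peaks. Gene-end calls and calls of more or less cover were not simulated. Named genes were 20 fixed genes, the 10 best-ranked gained and lost genes by q, list members gained or lost, and the widest genes; those named by covered length were chosen after their values were seen. Not every gene that these rules name is reported here. The members and gene lists were chosen with earlier results of these data known. Alternatives were a stricter q, equal numbers of top peaks, other windows and overlaps, a replicate block and leaving out each list.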

Additional observations from a re-analysis of the deposited data

How the results depend on the processing

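The share of peaks at gene ends kept its direction under every alternative run, from 4.44 to 12.2 points when each list was left out, and so did the share inside genes, from -12.2 to -4.78 points. Median width turned to -0.0123 (log2) at a -log10 q of at least 5 and to -0.0190 with the 10816 strongest peaks of each list; it ranged from 0.11 to 0.16 when a list was left out. Without DMSO replicate 1, list length and covered bases turned positive, ranging over the left-out lists from -0.519 to 0.0748 and from -0.509 to 0.158 (log2). Width at regions held by every list ranged from -0.15 to 0.21.

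Class counts moved more, since a list left out loosens each class: gained regions ranged from 753 to 3530, lost regions from 1198 to 7204, gained genes from 357 to 1173 and lost genes from 122 to 621. The gene-end share ranged from 27.8 to 60.4% for gained and 16.2 to 36.4% for lost regions. Gained list members ranged from 6 to 21 and lost ones from 2 to 18. At a -log10 q of at least 5, lost regions numbered 432 and the gene-end shares were 68.8% of gained and 28.0% of lost regions. With equal numbers of top peaks, gained genes numbered 455, gained list members 11, and the shares were 61.9% and 24.6%. With 50% cover of a region, 761 were gained. At gene starts alone 43 genes were lost, and with a 2.5 kb window 0 list members were lost.

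Genes with less cover ranged from 1607 to 3952 and with more from 1879 to 4380 when a list was left out. BCL6 targets with more numbered 7 to 12 and immediate-early genes 8 to 13 over all alternatives. The share of all covered genes with more ranged from 16.9 to 46.5% over the same alternatives. Without DMSO replicate 2, 41.8% of all covered genes had less, with 22 germinal-centre, 49 ribosomal protein and 15 MYC and growth genes. Ribosomal protein genes with less numbered 37 without CDK-TCIP1 replicate 1, where 17.1% of all covered genes had less. MYC and growth genes with less numbered 12 without CDK-TCIP1 replicate 2, where 32.2% of all covered genes had less. Pol II differences at gained, lost and all-list regions had no stable sign: they ranged from -1.32 to 1.12, -0.130 to 0.0371 and -14.1 to 5.97 points over left-out lists, and the lost one was 0.0371 at a -log10 q of at least 5. Ser2P differences kept their sign, from 11.6 to 29.3 points at gained, -36.9 to -25.1 at lost and 0.63 to 9.20 at all-list regions.

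The shared replicate numbers are not known to pair libraries: deviations of same-numbered libraries correlated at 0.14 over 5975 regions. With the replicate as a block, the gene-end difference was 8.32 points (exact sign-flip permutation p = 0.5) and the class counts were identical. The number of lists limits every test, and unknown depth limits what a missing peak shows.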
